A study of Mus musculus with 2 samples.

Results

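Bidirectional GC-rich promoters were regions of open chromatin that held the start sites of a head-to-head pair of protein-coding genes. They were found by merging the overlapping peaks of the DOX and the EtOH library on chromosomes 1 to 19. A merged region was kept when it held a peak of both libraries, when its GC fraction was at least 0.50, and when the start site of a minus-strand gene lay upstream of the start site of a plus-strand gene by at most 1 kb in GENCODE M21. Of 170665 regions shared by both libraries, 984 met the rule, and they held 1009 such pairs with 1981 of the 20807 protein-coding genes on these chromosomes. Every annotated transcript start of a protein-coding gene counted as a start site. A single pair was held by 951 of them and 33 held more. The choice used the peak calls of both libraries but no level or ratio, and it left out such regions with a peak in 1 library only, 5 in DOX and 6 in EtOH.

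The nuclei came from mammary gland organoids of shTRPS1.34 ki/+; CAG-rtTA3 tg/+ mice on C57BL/6J, which carry an inducible hairpin against Trps1 and a transactivator driven by the ubiquitous CAG promoter. Both groups carried both alleles. The DOX group received doxycycline at 0.1 µg/ml and the EtOH group received the solvent for 7 days, so that the hairpin and doxycycline itself cannot be told apart. Each group was 1 library of single-cell ATAC-seq made from mixed cells of several mice, whose number the sources give differently, and a legend of the study names wild-type mice instead, while the labels name shTRPS1 mice. With 1 library per group there is no test between groups, and every interval given here is a 95% counting interval that leaves out the variation between mice and libraries.

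A head-to-head pair shares 1 stretch of promoter DNA that drives transcription in both directions. Such promoters usually lie in CpG islands, lack a TATA box, and often serve genes of DNA repair, mitochondria and other housekeeping tasks. Factors such as those of the ETS family, NRF1, NFY and SP1 are known to bind them, and the chromatin between both start sites is commonly kept free of nucleosomes.

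The stretch between both start sites is printed for 2 pairs with well-known genes and for 5 pairs whose levels differed more between the libraries. Letters are the plus strand of mm10 (GRCm38), and capitals mark a match on either strand to 1 of the 11 strings searched, listed below with the motifs. Polh (DNA polymerase eta) and Xpo5 (the exporter of microRNA precursors) flank chr17:46202646-46202781. Ndufaf2 (an assembly factor of respiratory complex I) and Ercc8 (transcription-coupled repair) flank chr13:108158624-108158730. These 5 were Exd1 and Chp1 at chr2:119547628-119547696, Ppp1r3d and Fam217b at chr2:178414473-178414523, Col4a4 and Col4a3 at chr1:82586850-82586920, G0s2 and Lamb3 at chr1:193273218-193273337, and Ngef and Neu2 at chr1:87573871-87574026.
Polh/Xpo5: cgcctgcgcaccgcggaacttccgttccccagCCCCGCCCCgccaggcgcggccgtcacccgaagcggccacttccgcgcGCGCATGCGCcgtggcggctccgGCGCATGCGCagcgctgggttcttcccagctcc
Ndufaf2/Ercc8: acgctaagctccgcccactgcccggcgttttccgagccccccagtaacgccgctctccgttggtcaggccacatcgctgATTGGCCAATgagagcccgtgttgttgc
Exd1/Chp1: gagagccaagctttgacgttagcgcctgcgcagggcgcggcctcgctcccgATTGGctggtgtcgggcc
Ppp1r3d/Fam217b: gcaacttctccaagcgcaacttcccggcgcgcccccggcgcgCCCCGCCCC
Col4a4/Col4a3: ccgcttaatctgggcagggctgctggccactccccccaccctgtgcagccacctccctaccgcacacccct
G0s2/Lamb3: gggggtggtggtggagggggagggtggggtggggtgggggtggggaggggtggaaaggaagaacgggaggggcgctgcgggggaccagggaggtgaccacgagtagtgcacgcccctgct
Ngef/Neu2: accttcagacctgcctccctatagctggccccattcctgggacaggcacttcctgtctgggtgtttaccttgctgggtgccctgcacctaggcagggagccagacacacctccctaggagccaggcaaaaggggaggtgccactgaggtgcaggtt

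Only stretches that overlapped no annotated exon were printed. The Polh/Xpo5 stretch held 23 CpG dinucleotides in 136 bases, 1 SP string and the NRF1 string on both strands at each of 2 places. The Ngef/Neu2 stretch held no CpG in 156 bases and none of the strings, although its region met the GC rule with a GC fraction of 0.513.

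The DOX library held 3071 nuclei with 224762118 counts and the EtOH library 3104 nuclei with 211963715 counts, after 7600 nuclei of each had been loaded with the aim of recovering 5000. The median count per nucleus was 75296 and 66790, and 23 barcodes occurred in both libraries. Levels are given as counts per 1000000 counts in shared regions (CPM). Nuclei were clustered on regions over 1 kb from any start site, so that no promoter was used, and clusters 2 and 3 were called immune-like because accessibility over Ptprc, Tyrobp, Csf1r, Lyz2 and Spi1 led there, while the T-cell marker Cd3e, the other marker of that list, was lower. They made up 41.8% of the DOX nuclei (1284) and 9.09% of the EtOH nuclei (282), so that ratios between the libraries are also given for nuclei outside those clusters. Other clusters, which were hormone-sensing luminal-like (clusters 4 and 5) or unnamed, also differed in size, and cluster 0 was mostly EtOH (1710 of its nuclei, 55 DOX) while cluster 1 was nearly all DOX (1368 nuclei, 6 EtOH). The hairpin acts on RNA, so that accessibility at Trps1 checks no label. Regions within 1 kb of its start sites held 41.1 CPM in DOX and 25.7 CPM in EtOH, and 29.35 and 23.08 CPM outside the immune-like clusters.

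The bidirectional promoters were among the most open regions of these nuclei. Their median level was 41.7 CPM in DOX and 37.8 CPM in EtOH, against 20.4 and 19.6 CPM for 13549 GC-rich promoters with start sites of protein-coding genes on 1 strand and 2.50 and 2.57 CPM for all shared regions. Median widths were close, at 905, 898 and 913 bp, and per kb of region the medians were 46.4 and 42.4 CPM, 23.1 and 22.4 CPM, and 2.74 and 2.80 CPM. With each nucleus thinned to 5000 fragments, a bidirectional promoter had a fragment in a median of 18.8% of DOX and 17.2% of EtOH nuclei. The same share was 9.53% and 9.24% for the 1-strand GC-rich promoters and 1.02% and 1.09% for 138114 regions over 1 kb from a start site. Unthinned, it was 68.8% and 63.9% for the bidirectional promoters.

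The start sites lay close together, near the centre of regions rich in CpG. Distances were taken between the closest annotated transcript starts of a region, and are thus the shortest where a gene has several. The start sites of a pair lay a median of 96 bp apart, with quartiles at 52 and 178 bp and a range of 1 to 702 bp. With only 1 start site per gene, 613 of the regions met the rule. In 513 regions the distance was at most 100 bp, and in 90 it was over 300 bp. The point midway between both start sites lay a median of 60.5 bp from the centre of the region, and in 70.2% it lay within 100 bp. The median GC fraction was 0.618, and the observed over expected CpG ratio was 0.80, against 0.71 for the 1-strand GC-rich promoters, 0.26 for 3159 low-GC promoters and 0.19 for regions over 1 kb from a start site. Most annotated pairs were open in both libraries, since 84.0% of the 1201 pairs within 1 kb on these chromosomes were in the 984 regions.

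Of the 11 strings searched, that of the ETS family differed most from other GC-rich promoters in percentage points, while the ratio of shares was larger for the GFY string. In the central 300 bp of the region, CCGGAAG was found on either strand in 31.5% of bidirectional promoters (310 regions), in 14.0% of 1-strand GC-rich promoters and in 3.08% of all shared regions. The NFY string CCAAT was found in 42.7%, 31.6% and 33.1%, and the SP string GGGGCGGGG in 24.0%, 21.4% and 3.06%. Shorter lists held the NRF1 string GCGCATGC (6.71%, 4.25% and 0.85%), the YY1 string AAGATGGCG (5.49%, 2.58% and 0.42%), the CRE string TGACGTCA (4.47%, 2.80% and 0.73%), the ZBTB33 string CTCGCGAG (3.35%, 1.59% and 0.17%) and the GFY string ACTACAATT (1.02%, 0.36% and 0.17%). The E-box CACGTG was found in 10.6%, 9.13% and 4.78%. The TATA string TATAAA and the GATA string AGATAA were found in 3.35% and 3.66% of bidirectional promoters. Those shares were close to the 3.54% and 3.11% of 1-strand GC-rich promoters and below the 12.9% and 13.2% of all shared regions. TRPS1 is known to bind GATA sites, which the study describes for breast cancer cells. In sorted luminal cells the study found most TRPS1 peaks at promoters, with C2H2 zinc finger motifs enriched. The share with a GATA string thus does not tell whether TRPS1 binds these promoters. Matches to different strings may overlap, and a match is a description and not a bound site.

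Levels were higher for pairs further apart, up to a distance of about 300 bp. The median was 33.9 CPM in DOX and 30.8 CPM in EtOH for 232 pairs at most 50 bp apart, 44.9 and 41.0 CPM for 270 pairs 100 to 200 bp apart, 55.1 and 51.1 CPM for 111 pairs 200 to 300 bp apart, and 54.3 and 53.0 CPM for 90 pairs over 300 bp apart. Across the 984 regions, which share libraries and differ in base composition, Spearman's rho between distance and level was 0.31. Regions with a CCAAT string had a median level of 46.6 CPM over both libraries, and those without it 35.0 CPM. The ratio between the libraries showed no such trend with distance (rho −0.03). It did rise with the observed over expected CpG ratio (rho 0.31). The median log2 ratio was 0.07 for 77 regions with a CpG ratio of at most 0.6 and 0.18 for 191 regions over 0.9. Outside the immune-like clusters these medians were −0.01 and 0.03.

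The ratio of DOX to EtOH lay in a narrow range for most of these promoters. The median log2 ratio was 0.13, with quartiles at 0.07 and 0.20 and an interquartile range of 0.13. The median counting interval of a single region was also 0.13 wide. These equal widths do not show that the regions differed by counting error alone. The interval covers nearly all of the counting error of a region, while the interquartile range covers only the middle of the ratios. The extremes were −0.84 and 1.87. A 2-fold excess in DOX was reached by 2 of the 984 regions and a 2-fold excess in EtOH by 0. Over the 170510 shared regions that passed the minimum of 100 counts, the same calls were made for 13% and 13.4%. The interval lay wholly above 0 for 766 regions and wholly below 0 for 52, or 77.8% and 5.28% of them, against 30.7% and 42.5% of all shared regions. Shared regions held fewer counts, a median of 524 in DOX against 8716. Comparisons with their shares, here and below, are thus not at like depth. With at least 10000 counts over both libraries, 0 of 818 bidirectional promoters differed 2-fold in either direction. The same held for 0.12% of 5603 1-strand GC-rich promoters and 1.37% of 1022 regions over 1 kb from a start site.

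**Figure D1:**
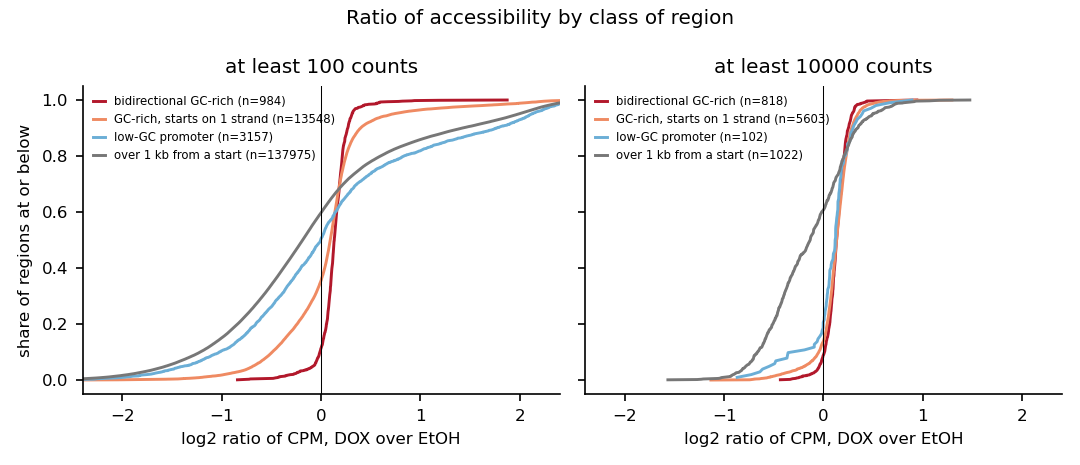
Cumulative share of regions (y axis) by the log2 ratio of CPM in DOX over EtOH (x axis), for regions with at least 100 counts (left) and at least 10000 counts (right), with 1 line for each class of region. The bidirectional promoters rise most steeply on the left, with an interquartile range of 0.13 against 0.36 for the 1-strand GC-rich promoters, and lie close to them on the right, at 0.12 against 0.15.

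The width of that spread moved with the counts of a region, and thus with its level as well as its depth. The median 1-strand GC-rich promoter held fewer counts, 4269 in DOX and 3877 in EtOH, than the median bidirectional promoter with 8716 and 7479. The ratios of the 1-strand class had an interquartile range of 0.36, with 479 called higher and 244 called lower. Among regions with at least 10000 counts over both libraries the interquartile ranges were 0.12 for 818 bidirectional, 0.15 for 5603 1-strand GC-rich and 0.16 for 102 low-GC promoters, with medians of 0.13, 0.13 and 0.12. For 1022 regions over 1 kb from a start site at that depth it was 0.62, with a median of −0.13. At like depth the bidirectional promoters thus spread little less than other GC-rich promoters and far less than regions away from start sites. Within the bidirectional promoters the interquartile range fell from 0.65 for 27 regions under 10 CPM to 0.05 for 47 regions over 80 CPM. The median range of their level over the clusters of each library fell too, from 2.38 to 0.64 on the log2 scale. Depth, level and evenness over the nuclei therefore cannot be told apart here.

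**Figure D2:**
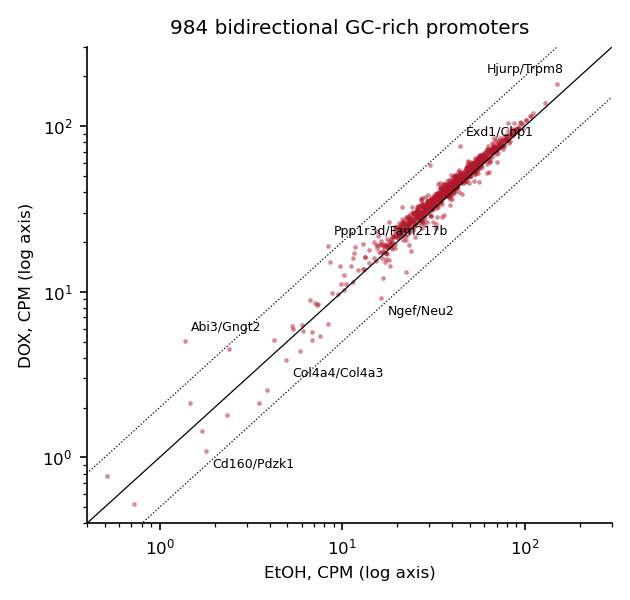
Level of each of the 984 bidirectional promoters in CPM in EtOH (x axis) and DOX (y axis), both on log axes, with each point a region, the solid line equality and the dotted lines a 2-fold difference. Abi3/Gngt2 and Ppp1r3d/Fam217b are the 2 points beyond the upper dotted line, and Hjurp/Trpm8 is the most open at 180 CPM in DOX and 151 CPM in EtOH.

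The upward shift of the class was smaller once immune-like nuclei were set aside. Bidirectional promoters held 4.35% of the counts in DOX and 3.99% in EtOH, a log2 ratio of 0.13 (0.125 to 0.129). In the immune-like clusters they held 4.79% to 5.22% of the counts in either library, and in the other clusters with at least 50 nuclei 3.57% to 4.23%. The 1-strand GC-rich promoters also held more there, 35.3% to 37.2% against 28.0% to 32.6%. In nuclei outside the immune-like clusters the median log2 ratio was 0.02 with an interquartile range of 0.08, and in immune-like nuclei alone it was −0.06 with an interquartile range of 0.14. Outside those clusters none of the 984 was 2-fold higher or lower, against 5.33% and 8.6% of shared regions. Among the 1-strand GC-rich promoters 0.56% were higher and 0.96% lower there. The interval there was wholly above 0 for 202 and wholly below 0 for 53, or 20.5% and 5.39%, against 22.5% and 31.3% of shared regions. In immune-like nuclei it was wholly above 0 for 23 and wholly below 0 for 147 of 976 regions, or 2.36% and 15.1%, against 9.96% and 6.53% of shared regions. Of the same 976 regions, 29 (2.97%) had an interval below 0 in immune-like nuclei and above 0 outside them, against 1.1% of shared regions, and 2 (0.20%), Poll/Gm17018 and Dok1/Loxl3, had the opposite, against 3.27%.

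**Figure D3:**
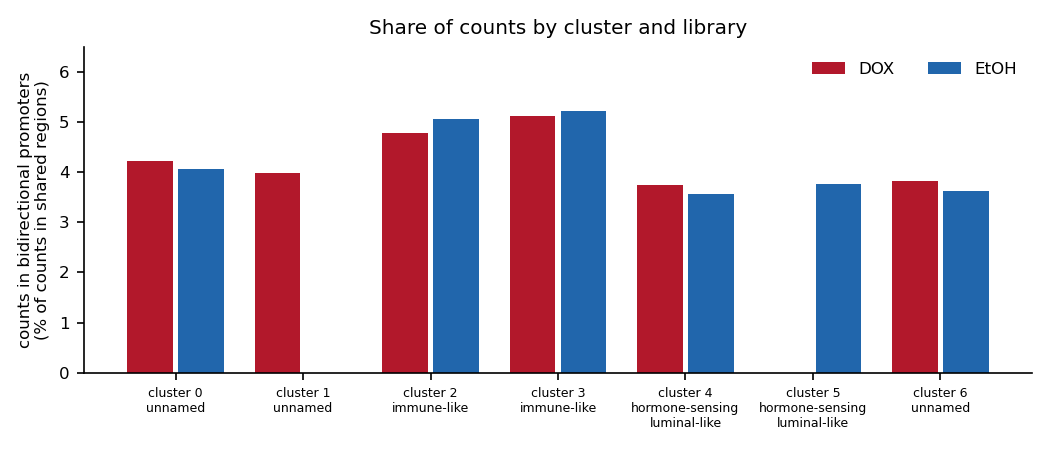
Share of the counts in shared regions that fell in bidirectional promoters (y axis, percent) by cluster of nuclei (x axis), for DOX and EtOH, with a bar drawn for each set of at least 50 nuclei and no error bars, since each set comes from 1 library. The 4 bars of the immune-like clusters lie between 4.79% and 5.22%, above the others. The share of the 1-strand GC-rich promoters, not drawn, was also higher in those clusters.

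Scaling moved the shift too. When the median of all shared regions, which was −0.13, was set to 0, the median log2 ratio of the bidirectional promoters was 0.26. Within each of the 5 clusters with at least 50 nuclei of both libraries, the median was 0.06 in cluster 0, −0.08 in cluster 2, −0.02 in cluster 3, 0.07 in cluster 4 and 0.08 in cluster 6. The immune-like clusters 2 and 3 lay below 0 and the other 3 above it, while the median counting interval of a single region was 0.45 to 0.74 wide there. In the same order the medians of the 1-strand GC-rich promoters were 0.02, −0.05, −0.01, 0.06 and 0.07, with the same signs. Cluster 1, with 1368 DOX and 6 EtOH nuclei, entered none of these ratios. They thus leave out most DOX nuclei outside the immune-like clusters. In cluster 0, 55 DOX nuclei were set against 1710 EtOH nuclei.

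Pairs known from textbooks followed the class. Of 20 such pairs listed, 18 were among the 984 regions, and Acat2/Tcp1 and Gart/Son were not. Their median log2 ratio was 0.14 in all nuclei and 0.05 outside the immune-like clusters. The interval was above 0 for 15 of them (83.3%, near the 77.8% of the class) and below 0 for 1, against 30.7% and 42.5% of shared regions. None was 2-fold higher or lower, where only 2 of all 984 (0.20%) were. Hspd1/Hspe1, which encode the mitochondrial chaperonin and its partner, held 71.3 CPM in DOX and 62.1 CPM in EtOH, a log2 ratio of 0.20 (0.15 to 0.25), and 0.02 (−0.04 to 0.08) outside the immune-like clusters. This pair was higher in DOX in all nuclei, and outside the immune-like clusters its interval held 0.

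DNA repair and cell cycle pairs had ratios in the same range. Brca1/Nbr1 held 35.7 CPM in DOX and 29.6 CPM in EtOH (log2 ratio 0.27, 0.20 to 0.34, and 0.08 outside), and Atm/Npat, a DNA damage kinase and a histone gene activator, held 72.4 and 66.4 CPM (0.13, 0.08 to 0.17, and −0.01 outside). Mcm4/Prkdc, of the replicative helicase and of end joining, held 74.3 and 67.0 CPM (0.15, 0.10 to 0.20, and 0.02 outside). Wrap53/Trp53, of telomerase trafficking and the tumour suppressor p53, held 20.1 and 18.8 CPM (0.10, 0.01 to 0.19, and −0.06 outside). Of the printed pairs, Polh/Xpo5 held 38.0 and 32.1 CPM (0.24, 0.17 to 0.31, and 0.09 outside) and Ndufaf2/Ercc8 40.1 and 38.4 CPM (0.07, 0.00 to 0.13, and −0.03 outside).

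The metabolic and translation pairs were Ranbp1/Trmt2a, Ppat/Paics, Surf1/Surf2, Sirt3/Psmd13, Hars/Hars2 and the antigen-processing pair Psmb9/Tap1. Their log2 ratios lay between 0.12 (Ppat/Paics and Hars/Hars2) and 0.31 (Surf1/Surf2, 0.23 to 0.39), with every interval above 0. Outside the immune-like clusters Surf1/Surf2, whose first gene encodes an assembly factor of cytochrome oxidase, held 25.5 CPM in DOX and 22.4 CPM in EtOH, a log2 ratio of 0.19 (0.09 to 0.28), which was the highest of the textbook pairs there after the collagen pairs.

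The type IV collagen pairs, which build basement membranes, were the textbook pairs at the lowest levels and the most uneven over the nuclei. Col4a1/Col4a2 held 5.95 CPM in DOX and 5.41 CPM in EtOH (log2 ratio 0.14, −0.03 to 0.31), and 6.66 and 5.50 CPM outside the immune-like clusters (0.28, 0.09 to 0.47). Col4a4/Col4a3, printed above with only 2 CpG in 71 bases, held 3.86 and 4.94 CPM (−0.35, −0.55 to −0.16), but 6.00 and 5.26 CPM outside (0.19, −0.01 to 0.39) and 0.54 and 0.72 CPM in immune-like nuclei. Its level in immune-like nuclei was lower by 3.48 on the log2 scale in DOX and by 2.88 in EtOH. Col4a1/Col4a2 ranged from 0.88 CPM in EtOH nuclei of cluster 4 to 13.0 CPM in EtOH nuclei of cluster 6.

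Among gene groups counted by symbol, no group held a region called 2-fold in either direction. Of all 984 regions only 2 (0.20%) were called higher and 0 lower, so that 0 calls in a small group says little. The respiratory chain group (31 regions) had a median log2 ratio of 0.12, the mitochondrial ribosome (27) 0.11, aminoacyl-tRNA synthetases (9) 0.12, RNA polymerase subunits (12) 0.09 and zinc finger genes (23) 0.14, against 0.13 for all 984. The proteasome group (9) stood at 0.20 and replication-dependent histones (10 regions with 19 genes) at 0.20, and outside the immune-like clusters these were 0.06 and 0.05. DNA repair and replication genes (52) had a median of 0.14, from Tk1/Afmid at −0.43 (−0.18 outside) to Rbks/Babam2 at 0.94. Trafficking, cilium and Tmem genes (55) had a median of 0.11. The gene group medians outside the immune-like clusters lay between −0.01 (RNA polymerase subunits) and 0.06 (proteasome), apart from the 2 collagen regions at 0.23.

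The gene lists the study used also touched the class. Genes of its luminal mature list were in 27 regions (median 0.20, 0.04 outside), those of its luminal progenitor list in 10 (0.17, 0.04 outside), and its TRPS1 targets linked to actin in 13 (0.13, 0.03 outside). None of these regions was called, where only 2 of all 984 (0.20%) were. Tcta/Rhoa, whose second gene encodes a small GTPase of the actin cytoskeleton, held 68.0 CPM in DOX and 59.1 CPM in EtOH (0.20, 0.15 to 0.25), and 57.0 and 56.4 CPM outside the immune-like clusters (0.01, −0.05 to 0.08). Both luminal list medians lay above that of all 984 regions in all nuclei, and within 0.02 of it outside the immune-like clusters.

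The exceptions to the even ratio were few. A log2 ratio of at least 0.5 was reached by 15 regions and of at most −0.5 by 5, against 20.6% and 31.1% of shared regions. Outside the immune-like clusters 1 region reached 0.5 and none −0.5, against 14.2% and 22% of shared regions. All 15 were more open in immune-like than in other nuclei in both libraries, beyond the interval, and all 5 were less open there. A higher level in immune-like nuclei was not particular to the 15. The median of all 984 regions was also higher there, by 0.35 on the log2 scale in DOX and 0.43 in EtOH. The share of all 984 beyond the interval is not given here. Outside the immune-like clusters 13 of these 20 regions (65%) had a log2 ratio within 0.25 of 0, as had 957 of all 984 (97.3%).

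**Figure D4:**
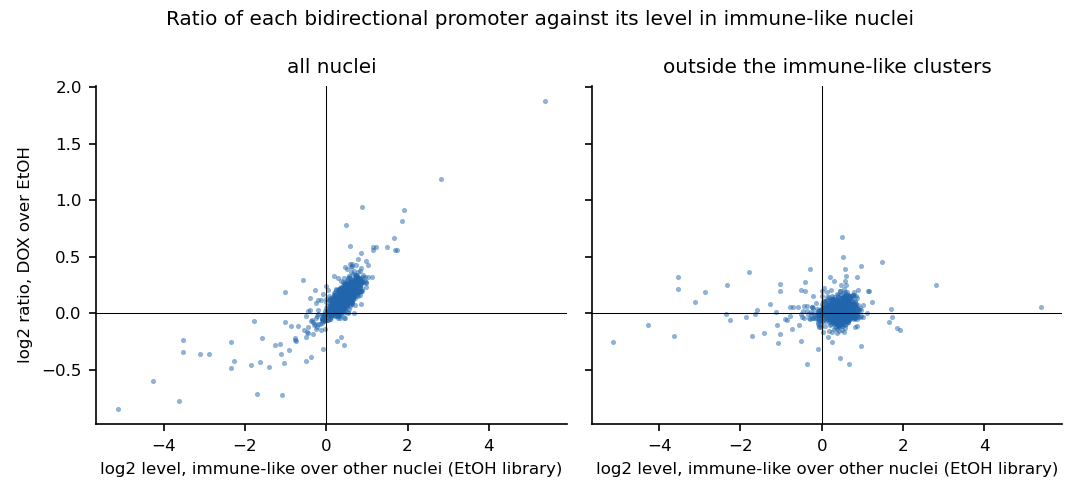
Log2 ratio of DOX over EtOH of each bidirectional promoter (y axis) by its log2 level in immune-like over other nuclei of the EtOH library (x axis), in all nuclei (left) and in nuclei outside the immune-like clusters (right). On the left the points rise from −0.84 (Ngef/Neu2) to 1.87 (Abi3/Gngt2), and on the right those 2 regions lie at −0.26 and 0.06. The axes share the EtOH counts and a region listed at 0 in immune-like nuclei is not drawn.

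Abi3/Gngt2 had the highest ratio. Abi3 encodes an adaptor of the actin machinery known from blood-derived cells and Gngt2 a G protein gamma subunit. The region (chr11:95841777-95842541) held 5.04 CPM (4.62 to 5.49) in DOX and 1.38 CPM (1.15 to 1.63) in EtOH, a log2 ratio of 1.87 (1.60 to 2.16). In immune-like nuclei it held 12.3 and 14.8 CPM, and outside them 0.37 and 0.35 CPM, where the log2 ratio was 0.06 (−0.77 to 0.87). It was open in the immune-like nuclei of both libraries and nearly closed elsewhere, and within the immune-like nuclei its log2 ratio was −0.27 (−0.57 to 0.05).

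Ppp1r3d/Fam217b, the other region called, joins a glycogen-targeting subunit of protein phosphatase 1 with a gene of unclear role. It held 18.9 CPM in DOX and 8.33 CPM in EtOH (1.18, 1.07 to 1.30). Outside the immune-like clusters it held 6.95 and 5.83 CPM (0.25, 0.07 to 0.44), and in immune-like nuclei 37.5 and 41.1 CPM. Lrrc34/Lrriq4 (4.50 and 2.39 CPM, 0.91), Bend6/Dst (15.04 and 8.53 CPM, 0.82) and Neurl2/Ctsa (18.6 and 11.7 CPM, 0.67), the last with a lysosomal protease, were at −0.15, −0.12 and −0.08 outside, each with an interval that held 0. All of these were regions with more accessibility in immune-like nuclei.

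The regions of lowest ratio were those least open in immune-like nuclei. Ngef/Neu2, of a guanine nucleotide exchange factor for small GTPases and a sialidase, held 9.12 CPM (8.55 to 9.72) in DOX and 16.3 CPM (15.6 to 17.2) in EtOH, a log2 ratio of −0.84 (−0.96 to −0.73). In immune-like nuclei it held 0.44 and 0.50 CPM, and outside them 14.7 and 17.5 CPM, where the log2 ratio was −0.26 (−0.37 to −0.14). It had the widest range of the 984 over the sets of at least 50 nuclei, from 0.24 CPM in DOX nuclei of cluster 3 to 22.3 CPM in EtOH nuclei of cluster 5. That range of 6.54 on the log2 scale was taken with sets under 3 counts put at 3 counts.

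Fam83h/K230010J24Rik, of a keratin-associated protein, followed at −0.77 (13.1 and 22.3 CPM, −0.87 to −0.67) for the more variable of its 2 regions, and at −0.20 (−0.30 to −0.10) outside the immune-like clusters. Ubxn10/Pla2g2c stood at −0.72 (2.13 and 3.51 CPM, and −0.26 outside), Cd160/Pdzk1 at −0.71 (1.09 and 1.79 CPM, −0.20 outside), and 6330409D20Rik/Sh2d3c at −0.60 (2.56 and 3.87 CPM, −0.10 outside). G0s2/Lamb3, of a lipase inhibitor and a laminin chain of epithelial basement membranes, was next at −0.48 (5.42 and 7.58 CPM, −0.64 to −0.32), and outside the immune-like clusters it held 8.01 and 8.03 CPM (−0.01, −0.17 to 0.16). It was highest in cluster 0, at 12.4 CPM in DOX and 11.6 CPM in EtOH, and lowest in cluster 3, at 0.64 and 1.02 CPM. Regions of CpG-poor pairs were frequent here, since 11 of the 20 regions past 0.5 in either direction were among the 77 with an observed over expected CpG ratio of at most 0.6.

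The other ranges over the sets of nuclei were wide only in a few regions. After Ngef/Neu2 came Abi3/Gngt2 (5.91 on the log2 scale), Cd160/Pdzk1 (5.82), Fam83h/K230010J24Rik (5.80) and Lrrc34/Lrriq4 (4.97). Among regions with at least 10000 counts the median range was 0.72 for bidirectional and 0.78 for 1-strand GC-rich promoters and 2.11 for regions over 1 kb from a start site. The range reached 2-fold in 12.1%, 22.1% and 78.5% of them. Between immune-like and other nuclei, the immune-like level was the larger by 2-fold or more in both libraries for 10 bidirectional promoters (1.02%) and the smaller for 21 (2.13%), against 15.5% and 49.5% of shared regions. The median bidirectional promoter was more open in immune-like nuclei, by 0.35 on the log2 scale in DOX and 0.43 in EtOH.

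The most open region was Hjurp/Trpm8, of the chaperone of the centromeric histone and a cold-sensing channel, at 180 CPM in DOX and 151 CPM in EtOH (204 and 171 CPM per kb). Mob3a/Izumo4 followed with 138 and 130 CPM, Rita1/Ddx54 with 120 and 111 CPM, Rnf5/Agpat1 with 115 and 108 CPM, and Cep57/Fam76b with 116 and 107 CPM. Their log2 ratios were between 0.09 and 0.26, and between 0.03 and 0.13 outside the immune-like clusters. The 5 least open were Bhmt2/Dmgdh (0.53 and 0.73 CPM), of methyl group metabolism, Gm3448/Ermard (0.77 and 0.52 CPM), Cd160/Pdzk1, Gabra4/Gabrb1 (1.44 and 1.71 CPM), of receptor subunits for the transmitter GABA, and the imprinted pair Sgce/Peg10.

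A region's counts could also move with how much of it each library's own peaks covered, since a library counted only within its own peaks. The covered length had a median of 895 bp in both libraries and was equal within 0.05 on the log2 scale in 89.5% of the 984 regions. In 9 it differed by over 0.25, with 3 longer in DOX and 6 longer in EtOH. These 9 were chosen after their values were seen. They included all 6 regions that differed in 1 direction beyond the interval in at least 4 of the 5 clusters. Of the 984 regions 3 were higher and 3 lower in that way, against 0.0663% and 0.0311% of all shared regions. These shares are not at like depth. The median interval within a cluster was 1.17 to 2.63 wide for shared regions and 0.45 to 0.74 wide for bidirectional promoters.

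The 3 higher of them were covered further in DOX. Exd1/Chp1 held 75.5 CPM in DOX and 43.9 CPM in EtOH (0.78, 0.73 to 0.84), with intervals above 0 in each of the 5 clusters, outside the immune-like clusters (0.67, 0.61 to 0.74) and within them (0.53, 0.39 to 0.68). Its peak was 943 bp long in DOX and 642 bp in EtOH. Per covered base the log2 ratio was 0.23 in all nuclei, 0.12 outside and −0.02 in immune-like nuclei. Rbks/Babam2, of ribokinase and a subunit of a DNA repair complex, held 57.8 and 30.2 CPM (0.94, 0.88 to 1.00) over 1254 and 827 bp. Per covered base it stood at 0.34 in all nuclei, −0.28 outside and 0.22 in immune-like nuclei. Lrrc74b/P2rx6 stood at 0.30 over 1077 and 665 bp, at 0.05 (−0.09 to 0.20) outside the immune-like clusters and at 1.12 (0.70 to 1.57) within them. Per covered base its log2 ratio was −0.40 in all nuclei, −0.64 outside and 0.42 in immune-like nuclei.

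The 3 lower of them were covered further in EtOH. Gucd1/Snrpd3, of a core protein of the spliceosome, held 52.5 CPM in DOX and 63.6 CPM in EtOH (−0.28, −0.33 to −0.23) over 715 and 883 bp, and stood at 0.03 per covered base. Gamt/Dazap1 was at −0.21 over 771 and 981 bp and at 0.14 per covered base, and Bbip1/Shoc2 at −0.04 over 720 and 857 bp and at 0.21 per covered base. Outside the immune-like clusters the log2 ratios of these 3 were −0.39, −0.18 and −0.11. In all 6 the ratio had the sign of the difference in covered length. The counts that the shorter library had outside its own peak were not analysed here, so that the size of that part was not tested.

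**Figure D5:**
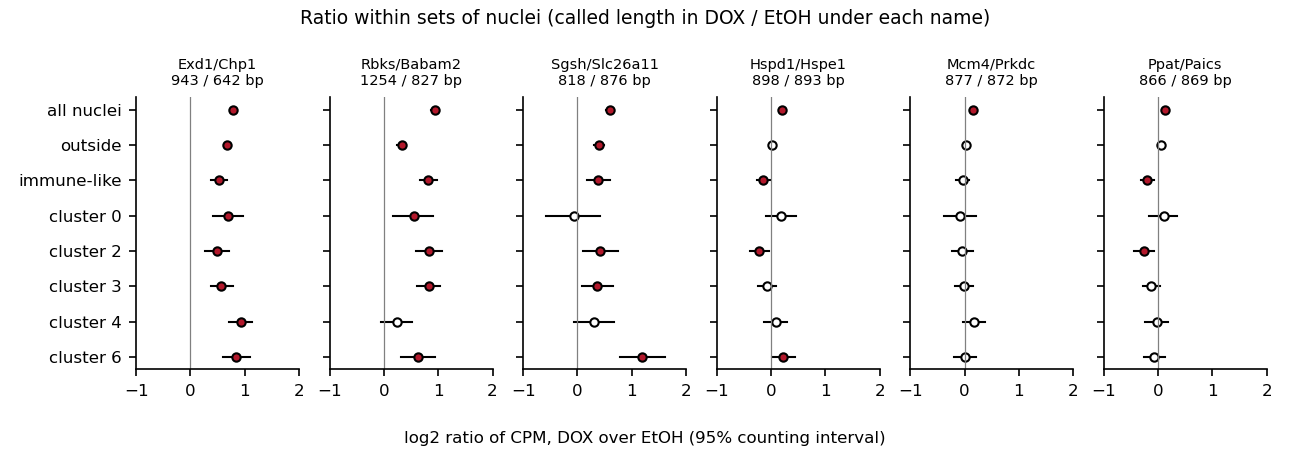
Log2 ratio of DOX over EtOH (x axis, with 95% counting intervals) for 6 bidirectional promoters in all nuclei, outside and within the immune-like clusters, and in each of 5 clusters (y axis), with filled points where the interval leaves out 0 and the length covered by each library's peaks in bp under the name. Exd1/Chp1 lies above 0 in every set with 943 and 642 bp covered, while Mcm4/Prkdc and Ppat/Paics lie between −0.26 and 0.17 throughout.

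Outside the immune-like clusters 20 regions (2.03%) had a log2 ratio of at least 0.25 and 7 (0.71%) of at most −0.25, against 23.8% and 34.9% of shared regions, and 23 of these 27 had covered lengths within 0.25. These were also named after their values were seen. Gpr3/Cd164l2 held 37.1 CPM in DOX and 26.3 CPM in EtOH there (0.49, 0.41 to 0.58). Sgsh/Slc26a11, of a lysosomal enzyme that degrades heparan sulfate and an anion transporter, held 27.1 and 20.6 CPM (0.40, 0.30 to 0.49), although its peaks were offset and shared only 598 of 1096 bp. Cxcl16/Zmynd15, with a chemokine, held 19.6 and 14.7 CPM (0.41, 0.30 to 0.53), and Duox2/Duoxa2, an oxidase of epithelia and its maturation factor, held 8.25 and 6.39 CPM (0.37, 0.20 to 0.54). The lowest was Tmem198b/Dnajc14, with 6.22 and 8.48 CPM (−0.45, −0.62 to −0.27). Each of these intervals left out 0, by counting error alone.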

How the data were processed

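Single-cell ATAC-seq was available for 1 DOX and 1 EtOH library. Per the file headers, the authors made whole-number counts of fragment ends per peak and nucleus with Cell Ranger ATAC 2.0.0, whereas the study's methods name another version, and the labels give mm10. The authors called peaks and nuclei in each library on its own. The deposited counts were not normalised. The peak positions and barcodes, deposited as other values (coordinates and names), were used to place the counts, and peaks on X, Y and scaffolds were left out.

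Here peaks that overlapped by at least 1 bp were merged, counts of each library's own peaks were summed over nuclei, and CPM were taken over shared regions. GC fractions and sequences came from GRCm38 and start sites from GENCODE M21. Intervals of 95% for ratios came from the exact conditional binomial, and those for CPM from the exact Poisson distribution, on counts divided by 2, since a fragment gives 2 ends. They cover counting error only. A region was called at a 2-fold ratio with at least 100 counts over both libraries, and no p-value was computed. The expected share of nuclei with a fragment was taken after thinning to 5000 fragments, with 2933 DOX and 2982 EtOH nuclei deep enough. Clusters came from TF-IDF and latent semantic indexing (components 2 to 30, 15 neighbours, Leiden resolution 0.5), and a cluster was named where its leading marker list stood at least 0.5 log2 above the next, a margin set after seeing the data. No doublet caller was run, and the 5% of nuclei of highest count were left out as an alternative. The scripts (Python 3.11.15, scipy 1.17.1, leidenalg 0.10.2) were checked on simulated counts.

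The regions and gene lists were chosen with earlier results of these data known. Named by rule were 20 textbook pairs, of which some enter the counts and medians but are not reported here by name, the 5 highest and 5 lowest ratios among regions with at least 200 counts, the 5 highest and 5 lowest levels, called regions with a gene of the study's lists, and the 5 widest ranges over clusters. Exd1/Chp1, Neurl2/Ctsa, G0s2/Lamb3, Tcta/Rhoa, Tk1/Afmid, the regions of unequal covered length and those named for their ratio outside the immune-like clusters were picked after their values were seen.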

Additional observations from a re-analysis of the deposited data

Results flagged for a closer look

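The class as a whole had ratios of opposite sign in 2 sets of nuclei. Its median log2 ratio of DOX over EtOH was −0.059 in immune-like nuclei and 0.023 in the nuclei outside those clusters, a difference that was not tested, as each set comes from 1 library per group. The trait was not particular to this class, since the 1-strand GC-rich promoters stood at −0.037 and 0.021.

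Some GC-rich bidirectional promoters had a peak in only 1 library and so entered no comparison. There were 5 such regions in DOX and 6 in EtOH, and the highest counts among them were 21819 in DOX (Cryzl1/Itsn1) and 3603 in EtOH (Cd3eap/Ppp1r13l). Cryzl1/Itsn1 held 104 CPM in DOX, above most of the 984 shared regions, while no EtOH peak overlapped it and the nearest shared region lay 1769 bp away. The counts of a library where it has no peak were not analysed here.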

How the results depend on the processing

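No paired analysis was possible because only 1 library stands for each group, and for that reason no replicate could be left out. With the median of all shared regions set to 0, the median log2 ratio was 0.26 and 4 regions were 2-fold higher. Without the immune-like clusters the median was 0.023, the summed log2 ratio 0.029 and 0 regions were 2-fold higher, and the same values (0.023, 0.029 and 0) came from a resolution of 1. In immune-like nuclei alone the median was −0.059, the summed log2 ratio −0.060 and 1 region was 2-fold higher. Without the 5% of nuclei of highest count the summed log2 ratio was 0.139. A GC fraction of at least 0.60 left 626 regions and 1 start site per gene 613, each with 1 region 2-fold higher. No region was 2-fold higher (0) with at least 10000 counts, or (0) where covered lengths were equal within 0.05. The share of nuclei with a fragment was 68.8% in DOX and 63.9% in EtOH without thinning, and 33.9% and 31.3% at 10000 fragments. In the other 56 of 78 alternatives, counts of regions moved by at most 1.5 times. Medians and interquartile ranges moved by less than 0.064, the reach of the median interval of a single region to either side. Summed log2 ratios moved by less than the reach of their own interval to either side. The minimum of 10000 counts, the immune-like nuclei alone, the resolution of 1 and the covered lengths were chosen after seeing the data. At this depth the median interval of a single region was 0.13 wide.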

Other observations

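Some imprinted head-to-head pairs had low levels. Sgce/Peg10 was 1 of the 5 lowest of the 984 regions, at 2.12 CPM in DOX and 1.46 CPM in EtOH. Peg3/Usp29 (403 counts, 2.04 CPM) and Nap1l5/Herc3 (97 counts, 0.49 CPM) had a peak in EtOH only. Pairs not known as imprinted were as low, such as Bhmt2/Dmgdh (0.53 CPM in DOX and 0.73 CPM in EtOH) and, with a peak in DOX only, Ccdc116/Ydjc (0.94 CPM). These pairs were picked after their values were seen, no full list of imprinted genes was used, and the difference from other pairs was not tested.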
